A study of Mus musculus with 16 samples.

Results

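The genes that lie beside Npc1 on mouse chromosome 18 were followed in the cerebellum of Npc1-/- and wild-type mice. They were taken by position alone, as every Agilent probe placed on chromosome 18 with a start between 7500000 and 17500000 (build mm7, per the file headers), about 5 Mb to each side of Npc1, with the probes of Npc1 itself left out. The stretch held 101 probes for 60 genes. Of these, 72 probes for 42 genes read well above background on 4 or more of the 8 arrays, among 27163 probes for 17982 genes that passed the same filter over the whole array. The other 29 probes, among them every probe of 18 genes, were too dim to be tested.

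Cerebella came from 4 Npc1-/- and 4 wild-type (Npc1+/+) mice aged 3 weeks, of the line BALB/cNctr-Npc1m1N/J on a BALB/c background. Homozygous mutants were bred in-house from heterozygous parents, and the labels name no treatment. Each Agilent one-colour array read 500 ng of Cy3-labelled total RNA of the whole cerebellum, and 4 arrays per genotype limit the precision of every comparison. The Illumina arrays of the same series identify probes by number, without gene name or position, and were not used here.

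Npc1 encodes a membrane protein of late endosomes and lysosomes that moves cholesterol out of these compartments, and mice or people that lack it develop Niemann-Pick disease type C. When a mutation is kept in a breeding line, the neighbouring stretch of its chromosome is inherited with it, so a mouse homozygous for the mutation is usually also homozygous for the linked stretch. Levels of neighbouring genes may therefore differ between genotypes through linked sequence differences or through local effects of the mutation on transcription. In this design the linked stretch and the mutation go together with the genotype and cannot be told apart. The comparison asked whether the neighbours differ at all.

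The number of probes well above background ran from 22182 to 28137 of 41174 per array, lowest on wild-type replicate 2. Wild-type replicate 3 stood apart in another way: the SD of its deviations from each probe's mean was 0.60 log2 units over the flanking probes and 0.54 over all probes, against 0.21 to 0.37 and 0.27 to 0.37 on the other arrays. For some values whose direction or size turned on that array, the value without it is also given below. Others, such as a Cdh2 probe and a Wac probe that changed sign without it, are given only with all arrays. The labelled tissue was checked against marker genes. All 6 granule neuron markers and all 5 Purkinje cell markers were well above background on all 8 arrays. Each was lower in Npc1-/- mice, with median log2 fold changes of -0.29 and -0.22, but none passed the test used below. Of 4 forebrain markers only Neurod6 was tested, and it was highest on wild-type replicate 2. The choroid plexus marker Folr1 was lowest on Npc1-/- replicate 3.

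Npc1 itself was examined first, since it bears on the labels. Levels throughout are log2 signal relative to the array's 75th percentile, and differences are Npc1-/- minus wild type in log2 units. The Npc1 probe at chr18:12540769-12540828 read -2.53, -2.44, -2.32 and -2.60 on the 4 Npc1-/- arrays and -0.52, -0.40, -0.64 and -0.37 on the 4 wild-type arrays. The genotypes were widely separated, as labelled. Npc1 fell 3.98-fold, by 1.99 ± 0.11 log2 units (SE, limma adjusted p = 0.000453). Whether this probe lies within the disrupted part of the transcript was not determined here, and another Npc1 probe was not well above background on any array. In whole tissue, fewer cells of a type and less RNA per cell cannot be told apart.

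None of the 72 flanking probes passed the test in either direction (limma, Benjamini-Hochberg adjusted p under 0.05 over all 27163 probes). Over the whole array, 0.523% of probes passed, 0.504% higher and 0.0184% lower in Npc1-/- mice. At an unadjusted p under 0.05 there were 2 flanking probes (2.78%), both for the gene Colec12, against 6.51% of all probes. The smallest adjusted p among the flanking probes was 0.163. In 3 flanking probes (4.17%) all 4 arrays of one genotype lay above all 4 of the other. The share was 4.35% for all probes and 2.36% for the other tested probes of chromosome 18. None of these shares was above that of the array as a whole.

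The flanking probes were centred on no difference. Their median log2 fold change was -0.00, beside -0.01 for the other 679 probes of chromosome 18 and -0.01 for all probes. Of the 72, 35 had positive and 37 negative values, from -0.28 for Snrpd1 to 1.05 for the transcript Gm15328. Only Gm15328 lay beyond 1 log2 unit, that is 2-fold (1.39%, against 1.55% of all probes). On the rest of chromosome 18, 0 of 679 probes passed, and 20 were higher and 13 lower at an unadjusted p under 0.05 (limma, 4.86%). Within the 3 slides that held arrays of both genotypes, the flanking median was 0.04, 0.02 and 0.01, and that of all probes 0.01, 0.01 and -0.00.

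The precision of these differences sets what could have been seen. The 95% confidence interval lay wholly within 1 log2 unit of zero for 58 of the 72 probes (80.6%, against 84.6% of all probes). It lay within 0.5 for 40 of the 72, against 14673 of all 27163 probes. For the other 14 of the 72 the interval reached past 1 log2 unit, that is 2-fold, on at least 1 side. For all 72 probes the lower bound of the interval was above the log2 fold change of Npc1. The same held for 27062 of all 27163 probes, so this is not particular to the flanking probes.

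**Figure D1:**
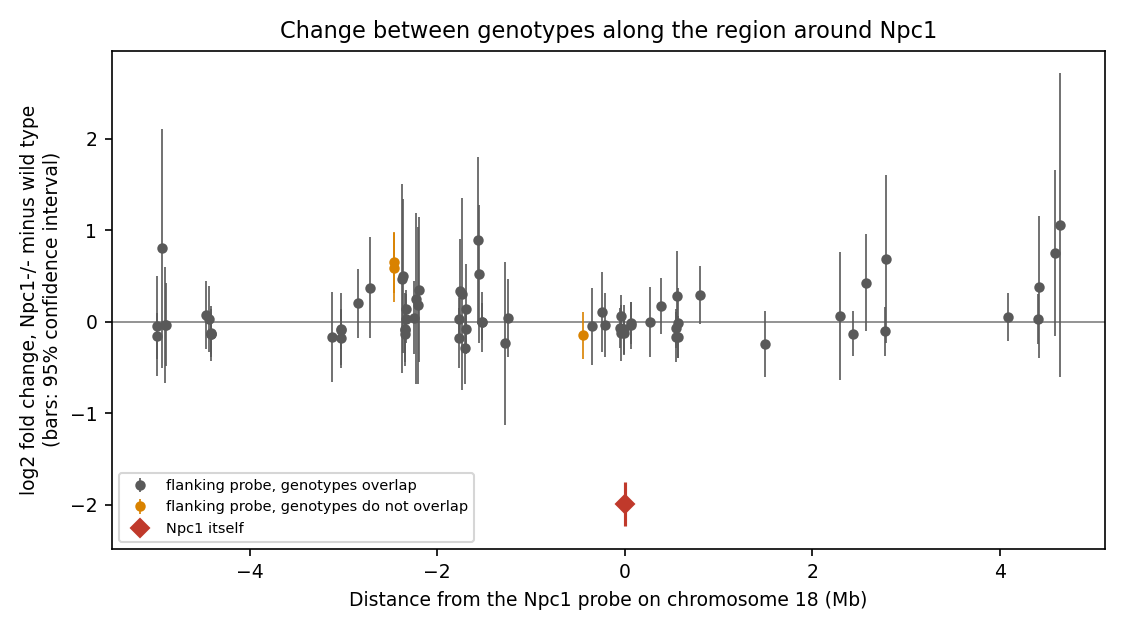
Log2 fold change (Npc1-/- minus wild type) of each of the 72 flanking probes and of Npc1 against the distance from the Npc1 probe in Mb; bars are 95% confidence intervals of the limma fit over 4 arrays per genotype. The flanking probes lie around 0 on both sides, 3 with genotypes that do not overlap are drawn in orange, and Npc1 alone lies near -2 (log2 fold change -1.99).

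**Figure D2:**
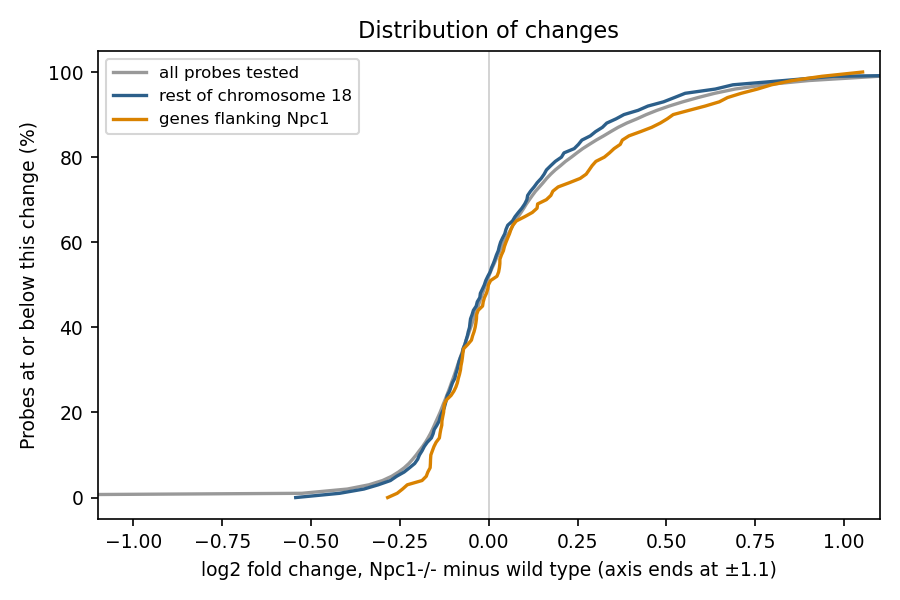
Percentage of probes at or below each log2 fold change, for the 72 flanking probes, the other 679 probes of chromosome 18 and all 27163 probes tested. The lines cross 50% at medians of -0.00, -0.01 and -0.01, and between about 70% and 95% the line of the flanking probes lies to the right, with a 75% point of 0.26 against 0.15 and 0.16.

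The closest neighbours came first. Within 1 Mb of Npc1 lay 19 probes for 13 genes, with a median log2 fold change of -0.04 and values between -0.16 and 0.29. Of the 19 values, 5 were positive and 14 negative (26.3% positive, against 48.0% of all probes). This lean was not tested. All 19 confidence intervals lay within 1 log2 unit of zero, against 84.6% of all probes. Of the 19, 16 lay within 0.5, against 14673 of all 27163 probes. None of the 19 passed the test, and none reached an unadjusted p under 0.05 (limma, against 6.51% of all probes). A single one of them, for Rbbp8, had groups that did not overlap (5.26%, against 4.35% of all probes).

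Rmc1, whose protein takes part in activating the small GTPase Rab7 on late endosomes, lies nearest, with a probe 2.01 kb from that of Npc1 (chr18:12538519-12538760). Its levels were -0.38, -0.21, -0.43 and -0.32 in Npc1-/- and -0.37, -0.27, -0.10 and -0.09 in wild-type mice, and the genotypes overlapped. The log2 fold change was -0.13 ± 0.10 (SE), with a 95% interval from -0.36 to 0.11 (limma adjusted p = 0.811). Within the 3 slides it was -0.11, -0.08 and -0.06. The other Rmc1 probe, 8.08 kb upstream, gave -0.09 ± 0.12.

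Riok3, a kinase of the RIO family, is next on the same side, 34.3 kb from the Npc1 probe. Its probe nearest the 3' end read 1.98, 2.34, 2.53 and 2.42 in Npc1-/- and 2.58, 2.41, 2.30 and 2.48 in wild-type mice. The arrays of both genotypes were interleaved, and the log2 fold change was -0.12 ± 0.13 (SE). Its other probes gave 0.06 and -0.07. Farther out on this side, the membrane protein gene Tmem241 had -0.03 ± 0.15 (SE) and Cables1, which encodes an adaptor of the kinases Cdk5 and Abl, had 0.11 ± 0.19.

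On the other side the nearest detected probes were 63.5 and 63.6 kb away, for the unnamed transcript ENSMUST00000080906 and for Ankrd29, an ankyrin repeat protein. Ankrd29 read -1.29, -1.11, -0.97 and -0.88 in Npc1-/- and -0.97, -1.003, -1.13 and -0.98 in wild-type mice. The wild-type values lay inside the Npc1-/- range, and the log2 fold change was -0.04 ± 0.11 (SE). ENSMUST00000080906 gave -0.02 ± 0.10. Lama3, a laminin chain of basement membranes, had 0.17 ± 0.13 for its probe nearest the 3' end and -0.01 ± 0.17 for the other. Ttc39c, a tetratricopeptide repeat protein, had -0.07 ± 0.09 and -0.16 ± 0.12.

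**Figure D3:**
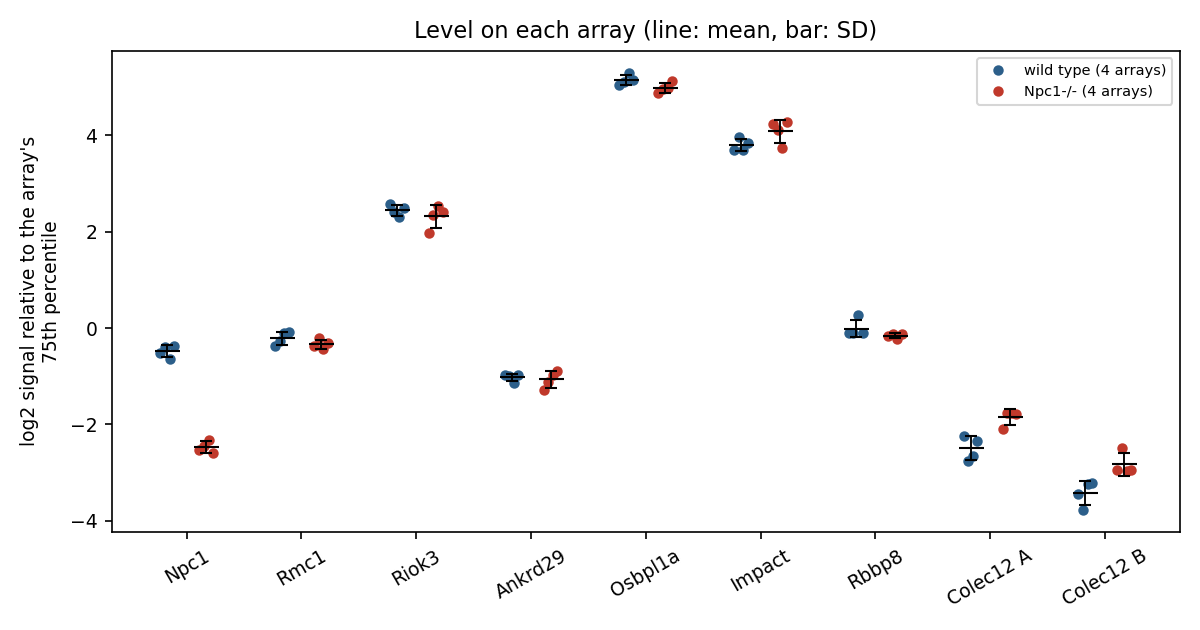
Level on each array (log2 signal relative to the array's 75th percentile) for Npc1 and 8 flanking probes, 4 wild-type and 4 Npc1-/- arrays each, with mean and SD; Colec12 A and B are its probes at chr18:10084444-10084503 and chr18:10083825-10083884. The genotypes part clearly for Npc1, do not overlap for both Colec12 probes and for Rbbp8, and overlap for the other 5; levels of different probes are not comparable with each other.

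By role, the genes tied to endosomes, lipids or membranes were of the most direct interest beside a cholesterol transporter. The list held 6 genes, Osbpl1a, Abhd3, Tmem241, Rmc1, Ankrd29 and Ttc39c, all detected, with 9 probes. All 9 log2 fold changes were small and negative, from -0.16 to -0.02 with a median of -0.08. All 9 intervals lay within 0.5 of zero, as did those of 14673 of all 27163 probes. None passed. Tmem241 and Ankrd29 and 1 probe of Ttc39c changed sign in other settings, so the common direction did not hold throughout. Osbpl1a encodes a sterol-sensing, oxysterol-binding protein of late endosomes. Its brighter probe read 4.87, 4.96, 4.98 and 5.13 in Npc1-/- and 5.04, 5.11, 5.30 and 5.15 in wild-type mice, with overlap. The difference was -0.16 ± 0.10 (SE, limma adjusted p = 0.811). Its other probe gave -0.02 ± 0.17. Abhd3, a phospholipid-cleaving enzyme, had -0.08 ± 0.09.

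Among kinases, GTPases and signalling proteins, 17 probes for 7 genes had a median log2 fold change of -0.04, and none passed. Impact, which restrains the stress kinase Gcn2 and is expressed from the paternal copy in mice, had the largest value within 1 Mb. Its levels were 4.23, 4.10, 3.74 and 4.27 in Npc1-/- and 3.69, 3.96, 3.70 and 3.84 in wild-type mice. Of the Npc1-/- arrays, only replicate 3 lay within the wild-type range. The log2 fold change was 0.29 ± 0.14 (SE), with an interval from -0.03 to 0.60 (limma unadjusted p = 0.0708, adjusted p = 0.811), and 0.40, 0.29 and 0.05 within the 3 slides. The kinase Rock1, which acts on the actin cytoskeleton, gave 0.04, 0.25 and 0.18 at its 3 probes. Wild-type replicate 3 was the lowest array at each of them, and without it all 3 turned negative, at -0.05, -0.11 and -0.18. The cyclin Ccny gave -0.17, -0.08 and -0.10, the last 0.03 without that array, and the Wnt receptor Fzd8 gave -0.16, or -0.28 without it.

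The chromatin and transcription genes, 14 probes for 7 genes, had a median of -0.13, with 5 positive and 9 negative values. Rbbp8, a factor of DNA end resection, read -0.16, -0.13, -0.23 and -0.12 in Npc1-/- and -0.10, -0.10, 0.26 and -0.10 in wild-type mice. All Npc1-/- arrays lay below all wild-type arrays, but only just, and wild-type replicate 3 stood far above the rest. Its log2 fold change was -0.15 ± 0.11 (SE, limma adjusted p = 0.811) and -0.06 without that array. Zfp521, a zinc finger factor of progenitor cells, read 3.19, 3.27, 3.77 and 3.50 in Npc1-/- and 3.76, 3.40, 3.87 and 3.69 in wild-type mice, with a log2 fold change of -0.25 ± 0.16. The genotypes overlapped. Ss18, a subunit of the BAF chromatin remodelling complex, had -0.13 ± 0.11, and 4 probes of Wac, an adaptor of histone ubiquitination, gave -0.14 to 0.03.

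Ubiquitin and proteasome genes were represented by 7 probes for 3 genes, with a median of 0.03 and none passing. Mib1, the ubiquitin ligase that activates Notch ligands, had -0.00 ± 0.14 (SE) and -0.00 ± 0.09 at the probes toward its 3' end and 0.52 ± 0.33 at a probe 38.2 kb upstream. Usp14, the proteasome-associated deubiquitinase, gave -0.07, 0.03 and 0.14, and Psma8, a proteasome subunit known from testis, 0.42 ± 0.23. Of the RNA processing genes, Thoc1, of the mRNA export complex THO, gave -0.14, -0.09 and 0.47, the last with a standard error of 0.45. Snrpd1, a core protein of the spliceosome, had -0.28 ± 0.17 at its brighter probe, the lowest value of all 72 with all arrays, and levels of 0.78, 1.07, 1.03 and 0.94 in Npc1-/- and 1.15, 0.80, 1.62 and 1.38 in wild-type mice. The genotypes overlapped through wild-type replicate 2, and the difference was -0.43 without that array and -0.16 without wild-type replicate 3. The cilium and sperm genes Cetn1 and Cabyr had 0.37 ± 0.24 and 0.28 ± 0.22, and without wild-type replicate 3 they had 0.14 and 0.23.

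The adhesion, matrix and junction genes, 11 probes for 4 genes with a median of 0.03, held the 2 flanking probes with the smallest p-values, both for Colec12. Colec12 encodes a scavenger receptor with a collagen-like stalk and a C-type lectin domain, known from vascular endothelium and phagocytes. Its probe at chr18:10084444-10084503 read -2.09, -1.77, -1.76 and -1.78 in Npc1-/- and -2.23, -2.76, -2.65 and -2.35 in wild-type mice. Every Npc1-/- array was above every wild-type array, which held for 2.54% of all probes in this direction. The level was 1.57-fold higher, a difference of 0.65 ± 0.15 (SE, limma unadjusted p = 0.00191), but this did not pass over all probes (adjusted p = 0.163).

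The other Colec12 probe, at chr18:10083825-10083884 and 0.619 kb upstream, gave a like difference. It read -2.94, -2.48, -2.96 and -2.94 in Npc1-/- and -3.45, -3.77, -3.24 and -3.22 in wild-type mice, again without overlap. Its log2 fold change was 0.59 ± 0.16 (SE, limma adjusted p = 0.344). It was well above background on 3 of the 4 wild-type arrays. Both probes read the same RNA of the same mice and are not independent. Within the 3 slides that held both genotypes the differences were 0.88, 0.82 and 0.47 for the first probe and 0.75, 0.83 and 0.49 for the second. Leaving out each array in turn gave 0.56 to 0.74 (adjusted p 0.147 to 0.483) and 0.47 to 0.66 (0.372 to 0.746). After normexp background correction and quantile normalization the second probe gave 0.31. Colec12 lies 2.46 Mb from Npc1, and no detected probe between them passed the test.

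Cell type markers that could bear on Colec12 moved unequally. Each of 9 microglia markers was higher in Npc1-/- mice, with a median log2 fold change of 1.23. Of the 9, 5 passed the test as higher, against 0.504% of all probes. In 8 every Npc1-/- array was above every wild-type array, against 2.54% of all probes. Their summed linear signal, in units of the array's 75th percentile, was 14.6 to 18.9 in Npc1-/- and 6.10 to 8.54 in wild-type mice. Of the 4 endothelium markers none passed, their median was -0.08, and their sums overlapped, 7.07 to 9.62 in Npc1-/- and 7.23 to 8.69 in wild-type mice. Of 6 oligodendrocyte markers none passed, but their median was -0.55 and their sums did not overlap, 126 to 150 in Npc1-/- and 171 to 237 in wild-type mice. Of 5 astrocyte and Bergmann glia markers none passed, with a median of -0.11. Among them Gfap, the filament protein of reactive astrocytes, was 1.08 ± 0.19 higher without overlap (SE, limma adjusted p = 0.0669). The part of these cell types in the Colec12 values was not tested.

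Cdh2, or N-cadherin, the main classical cadherin of neural tissue, was read by 2 probes at the far end of the stretch. The probe nearest the 3' end had 0.03 ± 0.12 (SE), and a dim probe 182.7 kb upstream, above background on 3 Npc1-/- arrays and 1 wild-type array, had 0.75 ± 0.40. Mpp7, a junction scaffold of the membrane-associated guanylate kinase family listed under both signalling and adhesion, likewise differed between probes. It had -0.16 ± 0.11 at its probe nearest the 3' end and 0.80 ± 0.57 at a probe 50.9 kb upstream. Its other 3 probes, 1.56, 88.3 and 91.9 kb upstream, gave -0.05, -0.04 and -0.03, so of the upstream probes only 1 departed. At the probe 50.9 kb upstream the Npc1-/- levels were -2.53, -2.62, -1.61 and -3.25 and the wild-type levels -2.09, -2.83, -4.84 and -3.44. Wild-type replicate 3 was the lowest array here, and without it the log2 fold change was 0.29.

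The same array recurred among the largest differences. Of the 72 flanking probes, 8 (11.1%) had log2 fold changes beyond 0.5, all of them positive (chosen after their values were seen). The share was 9.40% for all probes and 6.92% for the rest of chromosome 18. Larger changes leaned upward over the whole array too, with 5% and 95% points of -0.27 and 0.64. In 5 of the 8 the lowest array was wild-type replicate 3, and none of these passed. Over all 72 flanking probes that array was the lowest in 20 and the highest in 18. Choosing large positive values favours probes with a low wild-type array, and leaving out the lowest wild-type array must lower the difference. Without that array, Gm15328 went from 1.05 to 0.32, Mpp7 from 0.80 to 0.29, Cdh2 from 0.75 to 0.43, Kctd1, a transcriptional corepressor, from 0.68 to 0.32 and Mib1 from 0.52 to 0.23. The remaining 3 were both Colec12 probes, which went from 0.65 to 0.60 and from 0.59 to 0.65, and the unnamed transcript AK042441, at 0.79 from 0.89 (limma unadjusted p = 0.0545 with all arrays). Over all flanking probes, 71 passed the filter without that array. Of these 12 changed sign, 8 from positive to negative and 4 the other way, and none passed the test. The 12 flanking probes with no role list, mostly unnamed transcripts, had a median of 0.14, and Gm15328 and AK042441 were the only ones beyond 0.5.

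The spread between arrays differed with a probe's place in its gene. The strand in the file coordinates was taken as that of the transcript. Among 18 flanking genes with several detected probes, the probe nearest the 3' end had a median within-genotype SD of 0.18 log2 units, and the 21 probes over 5 kb upstream of it had 0.40. Wild-type replicate 3 was the lowest of the wild-type arrays in 2 of the 18 probes and in 12 of the 21. Over the whole array the same pattern was present, with median SDs of 0.17 and 0.31, and replicate 3 lowest among wild types in 1293 of 6207 probes nearest the 3' end and in 2139 of 3721 farther upstream. Upstream probes were also dimmer, with a median level of -2.52 against -0.21 for the probes nearest the 3' end. With only the probe nearest the 3' end of each of the 42 genes, an alternative chosen after seeing the data, none passed and the median was 0.01.

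**Figure D4:**
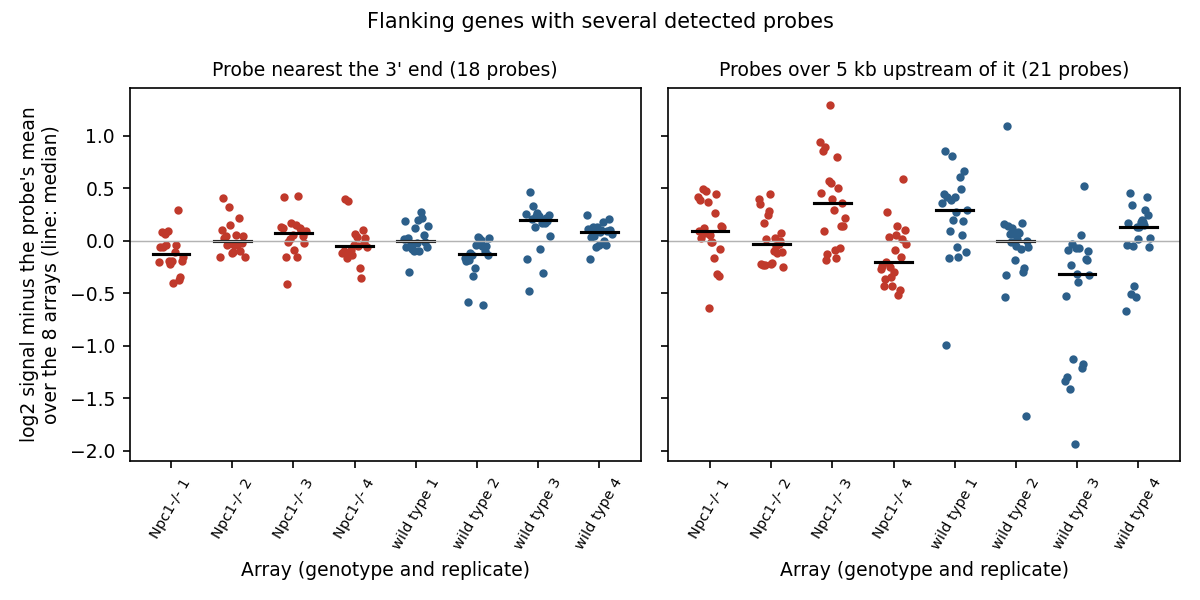
Deviation of each flanking probe from its own mean over the 8 arrays, in log2 units, by array, for the 18 probes nearest the 3' end (left) and the 21 probes over 5 kb upstream of them (right) in genes with several detected probes; lines are medians. The right panel is wider (median within-genotype SD 0.40 against 0.18), with wild-type replicate 3 the lowest wild-type array in 12 of 21 probes.

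Detection was compared as well, since a neighbour silenced in one genotype could drop out of the test. Of 101 probes, 56 were well above background on all 8 arrays and 16 on none. Detection parted the genotypes for 2 of the 101 probes, taken as above background on at least 3 arrays of one genotype and at most 1 of the other. The share of all probes that meet this rule was not computed, so whether 2 is few or many cannot be said. The sulfotransferase gene Chst9 was above background on 0 Npc1-/- and 3 wild-type arrays, and the upstream Cdh2 probe on 3 and 1. Just inside the detection limit, with exactly 4 arrays, lay probes of Lama3 and Cdh2 with log2 differences of -0.01 and 0.75. Just outside, with exactly 3, lay Chst9 (-1.01), Rbbp8 (0.98), Osbpl1a (0.47) and AU018823 (-0.12), whose values are near background and were not tested. At the edges of the stretch, the nearest detected probes inside were for Mpp7 (-0.16) and Gm15328 (1.05), and those outside were for Mkx (0.32) and Dsc2 (-0.01).

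The stretch was also split by side and by distance. The 51 probes at lower coordinates than Npc1 had a median log2 fold change of -0.00 and the 21 at higher coordinates 0.03. The 33 probes within 2 Mb had a median of -0.02 and the 39 beyond it 0.04. Positive values made up 36.4% and 59.0% of them, against 48.0% of all probes. Groups that did not overlap numbered 1 within 2 Mb (3.03%) and 2 beyond (5.13%), against 4.35% of all probes. No probe passed on either side or at either distance. The number of flanking probes without overlap was 5, 6 and 7 when Npc1-/- replicate 3, Npc1-/- replicate 4 or wild-type replicate 2 was left out, while the share of all probes became 7.30%, 9.24% and 9.84%. With the slide as a block none of the 72 passed, the smallest adjusted p was 0.17, and the median was 0.05, beside 0.00 for all probes.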

How the data were processed

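The authors deposited spot intensity from the scanner. The submitters' processing notes name Agilent Feature Extraction 9.5, and the processed signals are background-subtracted within each array, per the file headers. Log2 processed signal was taken minus the array's 75th percentile over non-control spots. Spots with an outlier flag (74 to 115 per array) were left out, spots of a probe were averaged, and saturation affected 0 non-control spots. A probe entered the fit when 4 or more of 8 arrays read it well above background. Fits used limma 3.58.1 (R 4.3.3), with lmFit and eBayes at the probe level, two-sided tests of genotype alone, Benjamini-Hochberg adjustment over 27163 probes and a threshold of 0.05. The fit was tested on simulated data. Plots were drawn with matplotlib 3.10.9.

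Groups and replicate numbers came from the sample titles. Probe positions are the files' (mm7); names were updated through RefSeq for 61 of the 72 flanking probes, and no RefSeq coordinate was used. Within the stretch, 1 further gene is not reported here. No probe sequence is given. The arrays lay on 4 slides scanned on 2 days: 1 slide held wild-type replicate 4 alone, 2 slides 1 array of each genotype, and the other 2 Npc1-/- arrays and 1 wild-type array.

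The flanking genes and the role and marker lists were chosen with earlier results of these data known. Named probes were those of Npc1, any flanking probe past the threshold, up to 10 with groups that do not overlap, the 4 nearest detected genes on each side and, per role list, the brightest probe and the one with the largest change. Other probes named were chosen after their values were seen. Alternatives were quantile normalization, normexp background correction (offset 50), other filters, the slide, scan day or replicate number as a block, 1 probe per gene, narrower windows and leaving out arrays.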

Additional observations from a re-analysis of the deposited data

Results flagged for a closer look

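Of 48 groups of 4 arrays checked, 4 held an array far from the other 3, by the gap to its nearest neighbour divided by the range of the group (above Dixon's 95% critical value; chance gives about 1 in 20). Npc1-/- replicate 2 lay above the rest for the Colec12 probe A_51_P512085 (-2.48 against -2.96 to -2.94, ratio 0.956). Npc1-/- replicate 1 lay below the rest for the Colec12 probe A_52_P527625 (-2.09 against -1.78 to -1.76, ratio 0.941). Wild-type replicate 3 lay above the rest for Rbbp8 (0.26 against about -0.10, ratio 0.978). Npc1-/- replicate 4 lay above the rest for ENSMUST00000080906 (1.66 against 1.38 to 1.42, ratio 0.839). None of these probes passed the test with all arrays.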

How the results depend on the processing

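No flanking probe passed under any alternative, and the smallest adjusted p among them ran from 0.126 to 0.811 over the settings. The number at an unadjusted p under 0.05 (limma) depended on the setting. It was 2 of 72 with all arrays, 6 of 71 without wild-type replicate 1 and 4 of 72 with the slide as a block. The matching shares of all probes in those 2 alternatives are not given here. Their median log2 fold change ran from -0.02 to 0.03 when each array was left out in turn, and was -0.06 without wild-type replicates 2 and 3 together (added after seeing the data) and 0.05 with the slide as a block. Probes whose genotypes do not overlap numbered 3 with all arrays, 3 to 7 without 1 array, 9 without wild-type replicates 2 and 3 together (13.7% of all probes then), and 1 within 2 Mb and 1 within 1 Mb of Npc1, where fewer probes are counted. Same-numbered arrays did not deviate together (correlations 0.17, 0.01, -0.46 and 0.18), so the numbers were not taken as pairs; with the replicate block none passed, the median was -0.00 and the smallest adjusted p 0.524.

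Of 23 named probes, 7 changed sign in 24 of 396 combinations, none of them called. Quantile normalization gave 0.034 for ENSMUST00000080906, -0.0067 for Lama3 and 0.070 for Mib1, and normexp -0.040 for Lama3, 0.061 for Ttc39c and 0.076 for Mib1. The slide as a block gave 0.072 for Tmem241 and 0.095 for Mib1, and the scan day 0.038 and 0.082. Without wild-type replicates 2 and 3 together Ttc39c gave 0.015 and Thoc1 -0.22. Without 1 array each, values ran from -0.16 to 0.052 for Tmem241, -0.084 to 0.011 for ENSMUST00000080906, -0.10 to 0.036 for Ankrd29, -0.090 to 0.076 for Mib1 and -0.0097 to 0.77 for Thoc1. The cause was not tested. Dim probes have wide intervals and limit what can be seen.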
